A study of Mus musculus with 16 samples.

Results

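The claudins measured in the terminal ileum were 10 genes, *Cldn1*, *Cldn2*, *Cldn3*, *Cldn4*, *Cldn5*, *Cldn7*, *Cldn8*, *Cldn12*, *Cldn15* and *Cldn23*, chosen by gene name out of the 23299 genes in the deposited table. The RPKM (reads of a transcript per kilobase of its length, relative to the library total) of all transcripts of a gene was summed. A gene was tested where 2 or more libraries had an RPKM of 1 or above, which 19042 genes and 9 of the 10 claudins passed; *Cldn1* did not. The comparisons ask how the family differed between genotypes and diets, and whether other claudins followed *Cldn7*.

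Claudins are small membrane proteins of the tight junction, the seal near the luminal edge of an epithelial sheet. Each strand of the junction is built from claudins of the same and of neighboring cells, and the mixture of claudins sets how leaky the sheet is and to which ions. Some tighten the sheet, whereas claudin-2 and claudin-15 form paracellular channels for cations, through which sodium returns to the intestinal lumen and feeds sodium-coupled nutrient uptake.

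RNA of the terminal ileum of C57BL/6 mice was sequenced on the Ion Proton platform. *Tas1r3*+/+ mice were wild-type littermates and *Tas1r3*-/- mice carried the Tas1r3tm1Csz allele, a loss of the taste receptor subunit TAS1R3 in all cells, backcrossed to C57BL/6. Mice of both sexes, kept free of specific pathogens and aged 5 to 6 weeks at assignment, received a normal diet (ND) with plain water or a Western diet (WD), a 60% high-fat diet with a 30% sucrose solution, for 10 weeks. The 13 libraries used were 4 of ND-fed *Tas1r3*+/+ mice (2 males, 2 females), 2 of ND-fed *Tas1r3*-/- mice (both male), 4 of WD-fed *Tas1r3*+/+ mice (2 males, 2 females) and 3 of WD-fed *Tas1r3*-/- mice (2 males and the mean of 2 related female columns).

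On the ND, no female *Tas1r3*-/- library was used: each of those columns equaled a weighted mean of the male ones (weights 0.75 and 0.25, or 0.625 and 0.375) except in 17 and 18 transcripts, none of them of a claudin. On the WD, the paired *Tas1r3*-/- female columns were counted as 1 library, since doubling female 2 and subtracting female 1 returned a value of 6 digits or fewer for 99.9% of transcripts. The step between low values implied 7003130 to 12384103 reads per library (median 9219458). The RPKM of *Tas1r3* was 1.80 to 6.27 in *Tas1r3*+/+ libraries and at most 0.00452 in *Tas1r3*-/- libraries. The *Tas1r3*-/- values are below the RPKM that 1 read on 1 kilobase would give, 0.0692 to 0.139. The bile acid genes of the ileum were present in all 13 libraries, at an RPKM of 630 to 6225 for *Fabp6* and 16.8 to 163 for *Slc10a2*. In this bulk tissue, fewer cells of a type and less RNA per cell cannot be told apart.

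Levels between genes were compared as deposited RPKM, which is per length. *Cldn7*, a claudin of the lateral membrane that binds EPCAM, and *Cldn3*, a sealing claudin, led the family in all 4 groups. Their mean RPKM was 877 ± 90.6 and 701 ± 110 (SD, n = 4) in ND-fed *Tas1r3*+/+ mice, followed by the channel formers *Cldn15* (153 ± 29.5) and *Cldn2* (125 ± 17.4), and by *Cldn4* (97.8 ± 41.8). *Cldn23*, of differentiated epithelium, had 31.5 ± 5.76, the endothelial claudin *Cldn5* had 12.1 ± 4.62, *Cldn12* had 9.38 ± 1.05 and *Cldn8* had 4.26 ± 2.41. *Cldn1* stood last, at 0.166 ± 0.212. The ranges over libraries overlapped between *Cldn7* and *Cldn3*, between *Cldn15* and *Cldn2*, between *Cldn2* and *Cldn4* and between *Cldn5* and *Cldn12*, so that these neighbors in the order did not differ beyond their spread, although *Cldn7* was above *Cldn3* in 4 of 4 libraries. The same first 3 genes led in each other group.

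**Figure D1:**
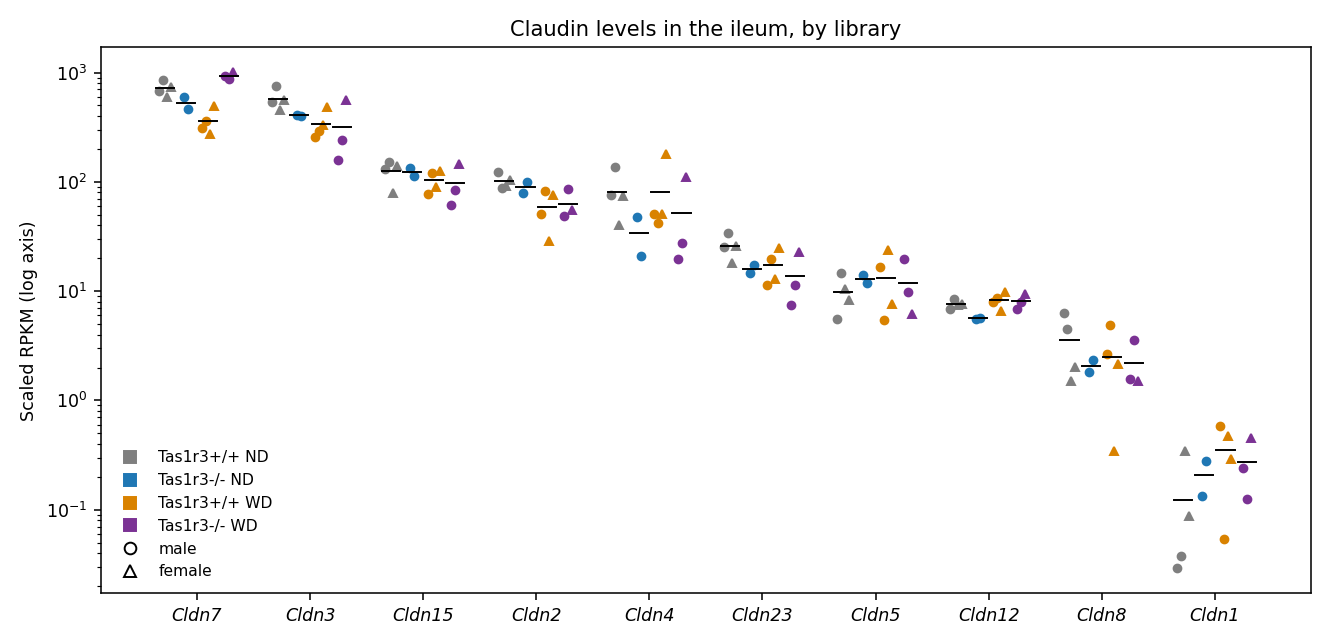
Scaled RPKM on a log axis of the 10 claudins in each of the 13 libraries, by group (colors) and sex (circles, males; triangles, females; the triangle of WD-fed *Tas1r3*-/- mice is the mean of 2 related columns); black lines are group means. *Cldn7* is at 867 to 1007 in WD-fed *Tas1r3*-/- mice, above all other libraries, while the other claudins overlap between the WD-fed groups.

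Levels between groups were compared as scaled RPKM, in which each library was divided by a factor from trimmed ratios between libraries. A claudin was called at a limma adjusted p under 0.01 (Benjamini-Hochberg, over all 19042 genes tested) with a fold change of at least 2. In WD-fed mice, the scaled RPKM of *Cldn7* was 308, 362, 274 and 496 in the 4 *Tas1r3*+/+ libraries (males 1 and 2, females 1 and 2). It was 924, 867 and 1007 in the 3 *Tas1r3*-/- libraries (males 1 and 2, females). Every *Tas1r3*-/- library was above every *Tas1r3*+/+ library. The difference was 1.41 on the log2 scale (SE 0.25, 95% interval 0.87 to 1.94, 2.65-fold). The unadjusted p was 8.46e-05 and the adjusted p 0.179 by limma, so *Cldn7* was not called. It was at rank 9 of the 19042 genes by p. All of the first 10 genes by p hold deposited values with more than 6 digits, described below for *Cldn7*. The two-sided exact permutation test gave p = 0.0571, the smallest that 4 against 3 libraries allow with the smaller tail doubled.

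None of the other 8 claudins tested separated the WD-fed genotypes as *Cldn7* did. Among them, 0 had an unadjusted p under 0.05, 0 were called, and each had an adjusted p of 1.000 by limma. Over all genes tested, 2 were called (0.0105%), 5 (0.0263%) had an adjusted p under 0.05, and 504 (2.65%) had an unadjusted p under 0.05. The groups did not overlap for 1 of the 9 claudins, *Cldn7*, and for 2.84% of all genes. The median log2 difference was -0.08 over the 9 claudins and -0.01 over all genes.

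The sealing claudins *Cldn3* and *Cldn4* varied widely within the WD-fed groups. *Cldn3* had a scaled RPKM of 256, 290, 331 and 481 in *Tas1r3*+/+ libraries and of 158, 240 and 563 in *Tas1r3*-/- libraries. Both male *Tas1r3*-/- libraries were below, and the female one above, all *Tas1r3*+/+ libraries. Its log2 difference was -0.25 (SE 0.38, 95% interval -1.06 to 0.57). *Cldn4* was at 50.5, 42.3, 50.6 and 179 in *Tas1r3*+/+ libraries and at 19.6, 27.5 and 110 in *Tas1r3*-/- libraries, with the female 2 and the female *Tas1r3*-/- libraries far above the rest (log2 difference -0.75, 95% interval -2.13 to 0.62). Without the female *Tas1r3*-/- library, the log2 difference was -0.76 for *Cldn3* and -1.50 for *Cldn4*, with adjusted p of 0.416 and 0.415 by limma; without the male 1 *Tas1r3*-/- library it was 0.18 and -0.24. In the fit without the female library, 4 of the 9 claudins (*Cldn3*, *Cldn4*, *Cldn7* and *Cldn23*) had an unadjusted p under 0.05, compared with 10.3% of all genes.

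The channel formers also overlapped between the WD-fed genotypes. *Cldn2* was at 50.8, 81.9, 28.6 and 75.8 in *Tas1r3*+/+ libraries and at 48.4, 86.0 and 55.3 in *Tas1r3*-/- libraries, a log2 difference of 0.16 (95% interval -0.56 to 0.87). *Cldn15* was at 77.8, 120, 88.8 and 126, and at 61.5, 83.8 and 147, a log2 difference of -0.15 (95% interval -0.82 to 0.52). These intervals include changes of up to 0.87 and 0.52 upward on the log2 scale, both below the *Cldn7* estimate of 1.41. The interval of *Cldn7* itself begins at 0.87. Among the other members, the log2 difference was -0.37 for *Cldn23* (-0.79 without the female and -0.00 without the male 1 *Tas1r3*-/- library), -0.08 for *Cldn5*, -0.02 for *Cldn12* and 0.04 for *Cldn8*, each with an interval that includes 0. *Cldn12*, which lacks the scaffold-binding tail of most claudins, had the narrowest interval, -0.41 to 0.36. Those of *Cldn5* (-1.15 to 0.99) and *Cldn8* (-1.21 to 1.29) reached into that of *Cldn7* (0.87 to 1.94). A rise within the *Cldn7* interval was thus not excluded for *Cldn5* and *Cldn8*.

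**Figure D2:**
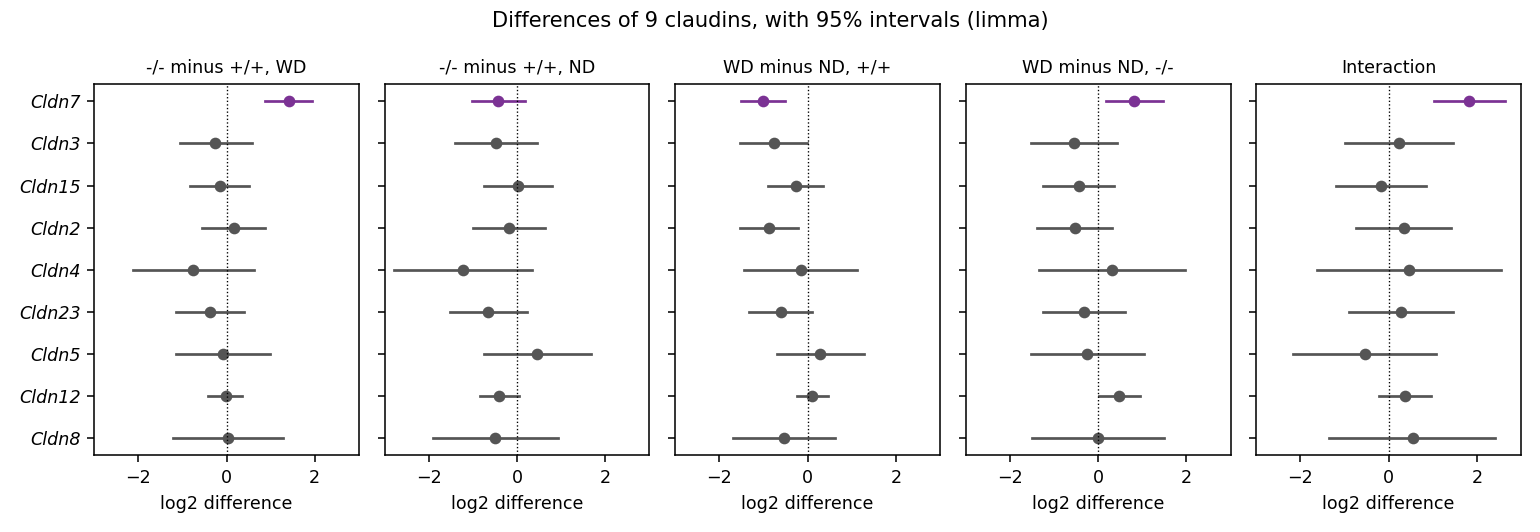
Log2 differences of the 9 claudins tested (points) with their 95% limma intervals (lines) in the 4 comparisons and in the genotype by diet interaction; *Cldn7* is in purple. The interval of *Cldn7* excludes 0 in all panels but the ND genotype comparison, and those of the other claudins include 0 except for *Cldn2* and *Cldn3* in *Tas1r3*+/+ mice and *Cldn12* in *Tas1r3*-/- mice.

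In ND-fed mice, 0 of the 9 claudins were called and 0 had an unadjusted p under 0.05, compared with 0% and 4.73% of all genes (1 gene, 0.00525%, had an adjusted p under 0.05 by limma). *Cldn7* was at 672, 861, 594 and 733 in *Tas1r3*+/+ libraries and at 601 and 462 in *Tas1r3*-/- libraries. The groups overlapped, and the log2 difference was -0.43 (SE 0.28, adjusted p = 0.895 by limma), opposite in sign to that on the WD. The estimates were below 0 for 7 of the 9 claudins and for 48.7% of all genes, with medians of -0.43 and 0.01. *Cldn3*, *Cldn12* and *Cldn23* were lower in both *Tas1r3*-/- libraries than in all 4 *Tas1r3*+/+ libraries, a separation that 22.0% of all genes showed, 13.3% in the same direction. Since both *Tas1r3*-/- libraries were male, sex and genotype cannot be fully told apart here, and the two-sided exact permutation test cannot go below p = 0.133 with 2 against 4 libraries. *Cldn4* had the difference farthest from 0, at 75.1, 136, 40.0 and 74.4 in *Tas1r3*+/+ and 34.1 ± 18.6 (SD, n = 2) in *Tas1r3*-/- libraries, of which male 1 (47.3) was within the *Tas1r3*+/+ range (log2 difference -1.22, adjusted p = 0.895 by limma). Among males alone, 4 of the 9 claudins (*Cldn3*, *Cldn4*, *Cldn8* and *Cldn23*) were lower in *Tas1r3*-/- mice at an unadjusted p under 0.05, compared with 9.18% of all genes in either direction; *Cldn4* was then at -1.67 and *Cldn8* at -1.19 (adjusted p of 0.516 and 0.529 by limma). With the RPKM as deposited, it was again 4 of the 9 (*Cldn4*, *Cldn7*, *Cldn12* and *Cldn23*), compared with 1713 of the 19042 genes.

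Between the diets in *Tas1r3*+/+ mice, 0 of the 9 claudins were called (1 gene of all tested, 0.00525%) and 0 had an adjusted p under 0.05 by limma (22 genes, 0.116%). *Cldn2*, *Cldn3* and *Cldn7*, which is 3 of 9, had a lower level on the WD at an unadjusted p under 0.05, compared with 15.5% of all genes in either direction and 8.64% in that one. The median log2 difference was -0.54 over the 9 claudins and 0.02 over all genes. *Cldn7* was at 594 to 861 on the ND and 274 to 496 on the WD, without overlap, a log2 difference of -1.01 (SE 0.23, 95% interval -1.51 to -0.52, adjusted p = 0.0993 by limma). Its two-sided exact permutation p was 0.0286, the smallest that 4 against 4 allow. *Cldn2* was at 124, 88.5, 90.9 and 104 on the ND and, as given above, at most 81.9 on the WD, also without overlap (log2 difference -0.87, SE 0.31, adjusted p = 0.209 by limma). The groups did not overlap for 2 of the 9 claudins and for 10.5% of all genes. *Cldn3* was at 534, 751, 452 and 556 on the ND, and its female 2 library on the WD (481) was within the ND range (log2 difference -0.77, adjusted p = 0.311 by limma).

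The scaling matters most for the diet comparison, because the median log2 difference of all genes was -0.38 in *Tas1r3*+/+ and -0.35 in *Tas1r3*-/- mice before it and 0.02 and 0.00 after it. Summed over all transcripts, the deposited RPKM of a library was 817011 to 819916 on the ND and 542371 to 672933 on the WD. The library totals thus split by diet, and their part in the diet and interaction estimates was not tested. With the RPKM as deposited, the diet difference of *Cldn7* in *Tas1r3*+/+ mice was -1.47 with an adjusted p of 0.00309 by limma, which is a call. *Cldn2* was then at -1.33 (adjusted p = 0.0120) and *Cldn3* at -1.23 (adjusted p = 0.0159). *Cldn23* was at -1.06 (adjusted p = 0.0276) and *Cldn15* at -0.73 (adjusted p = 0.0578), against -0.61 and -0.27 with scaling. *Cldn12*, at 0.10 with scaling, was at -0.33 without it.

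Between the diets in *Tas1r3*-/- mice, *Cldn7* was higher on the WD than on the ND, at 867 to 1007 against 601 and 462. The log2 difference was 0.82 (SE 0.30, 95% interval 0.18 to 1.46, adjusted p = 0.870 by limma), and 0.42 with the RPKM as deposited. The groups did not overlap for *Cldn7* and *Cldn12*, 2 of the 9 claudins, and for 20.9% of all genes; 0 claudins and 0% of all genes were called, and 2 claudins (the same 2) and 5.49% of all genes had an unadjusted p under 0.05. *Cldn12* was at 5.60 and 5.66 on the ND and 6.91, 8.01 and 9.38 on the WD (log2 difference 0.48, adjusted p = 0.901 by limma), and its difference was 0.10 as deposited. With the RPKM as deposited, other claudins had an unadjusted p under 0.05, namely *Cldn2* (-0.94), *Cldn3* (-0.95) and *Cldn15* (-0.84), all lower on the WD, compared with 14.8% of all genes; with scaling they were at -0.53, -0.54 and -0.44. The exact permutation test cannot go below p = 0.200 with 3 against 2 libraries. Both ND-fed libraries were male, so sex and diet cannot be fully told apart here. Among males alone, the log2 difference was 0.76 for *Cldn7* and 0.37 for *Cldn12* (adjusted p of 0.266 and 0.467 by limma). There 4 of the 9 claudins (*Cldn3*, *Cldn7*, *Cldn15* and *Cldn23*) had an unadjusted p under 0.05, compared with 13.7% of all genes. All but *Cldn7* were lower on the WD. In contrast to *Tas1r3*+/+ mice, where *Cldn7* was lower on the WD, the diet estimate in *Tas1r3*-/- mice was upward. The test of that difference itself, the interaction, gave 1.83 on the log2 scale (SE 0.37, 95% interval 1.02 to 2.64, adjusted p = 1.000 by limma). Among males alone, the interaction was 1.95 (adjusted p = 0.922 by limma). *Cldn7* was at rank 3 of the 19042 genes by p in this test and 0 genes (0%) were called. Of all genes, 272 (1.43%) had an unadjusted p under 0.05 by limma, among them 1 of the 9 claudins. Of the first 10 genes by p, 6 hold deposited values with more than 6 digits.

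Ratios between genes of the same library do not depend on the scaling. They were chosen after the values were seen and are given as a description. The RPKM of *Cldn7* divided by that of *Cldn3* was 0.827 to 1.47 in the 10 libraries outside WD-fed *Tas1r3*-/- mice. It was 5.86, 3.60 and 1.79 in male 1, male 2 and the females of that group, so all 3 were above the other 10. Relative to *Epcam*, whose product holds claudin-7 at the lateral membrane, *Cldn7* was at 0.389 to 0.853 in the 10 libraries and at 3.76, 1.63 and 0.855 in these 3. *Cldn3* relative to *Epcam*, in contrast, stayed between 0.372 and 0.643 over all 13 libraries, and *Cldn23* relative to *Cldn3* between 0.0355 and 0.0675. Thus *Cldn3*, *Cldn23* and *Epcam* varied together from library to library. The ratios of *Cldn7* to *Cldn3* and *Epcam* were highest in the WD-fed *Tas1r3*-/- males. There scaled *Epcam* was 246 and 531, against 586 to 1275 in WD-fed *Tas1r3*+/+ libraries. The female ratio to *Epcam* (0.855) was close to that of ND-fed *Tas1r3*-/- male 1 (0.853).

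**Figure D3:**
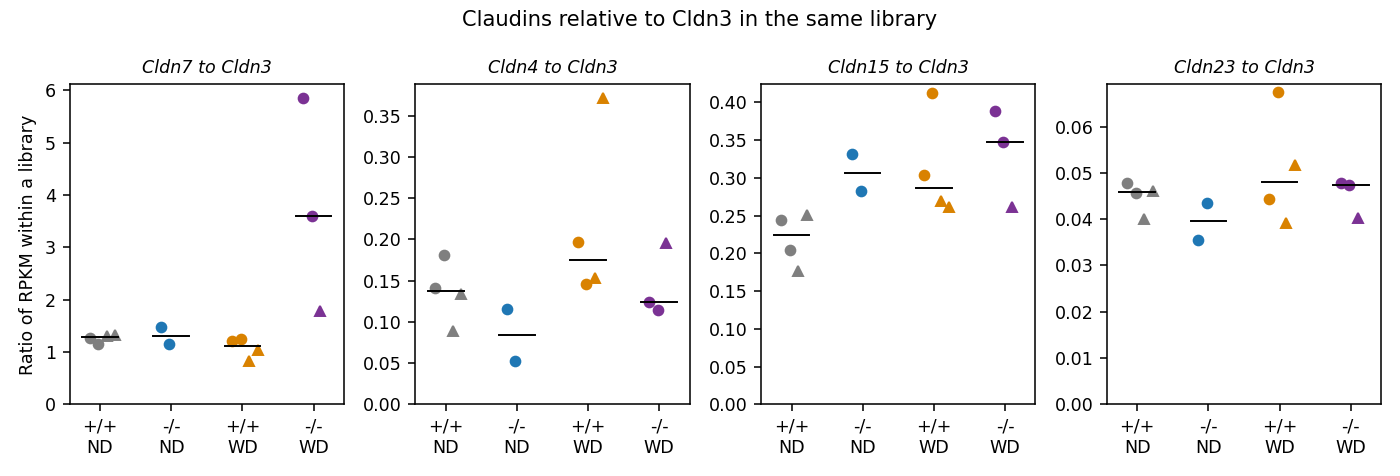
RPKM of *Cldn7*, *Cldn4*, *Cldn15* and *Cldn23* divided by that of *Cldn3* in the same library (each axis starts at 0), by genotype and diet; circles are males, triangles females and black lines group medians. The ratio of *Cldn7* is 1.79 to 5.86 in WD-fed *Tas1r3*-/- mice and at most 1.47 elsewhere, whereas the other ratios overlap between the WD-fed groups.

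Epithelial markers took the same order over the WD-fed *Tas1r3*-/- libraries as *Cldn3*, *Cldn4*, *Cldn15* and *Cldn23*. The summed scaled RPKM of 8 epithelial genes (*Epcam*, *Cdh1*, *Vil1*, keratins and *Cdh17*; 8 of 8 in the table) was 4880 to 8243 in ND-fed and 3667 to 6062 in WD-fed *Tas1r3*+/+ mice. It was 5405 and 5887 in ND-fed and 2333, 4596 and 6713 (male 1, male 2, females) in WD-fed *Tas1r3*-/- mice, lowest in male 1 and highest in the females, as for these 4 claudins. The sum of 8 ileal enterocyte genes (8 of 8) was 6539 to 11358, 5526 to 22097, 3712 to 5910 and 1491 to 11183 in these groups, with 1491, 3616 and 11183 in the last. Smooth muscle genes (7 of 7) ran the other way in WD-fed *Tas1r3*-/- mice, at 5443, 2959 and 1392, and were at 1124 to 3368, 1038 to 4077, and 1983 and 3845 in the other groups in the same order. *Cldn7* did not take this order, as its lowest value (867) was in male 2 and its male 1 value (924) was close to the female one (1007). Paneth cell genes (6 of 6 in the table) had 6 of 6 genotype estimates above 0 on the WD (median log2 difference 1.06). Of these, 3 had an unadjusted p under 0.05 by limma, compared with 2.65% of all genes. Their sums separated the WD-fed genotypes as *Cldn7* did, at 12033 to 23384 in *Tas1r3*+/+ and 36422 to 55132 in *Tas1r3*-/- libraries. On the ND, where *Cldn7* overlapped, these sums were 10738 to 33496 and 44352 to 67265. Between the diets in *Tas1r3*+/+ mice, 8 of 8 epithelial genes were below 0 (median -0.48). Of these, 1 had an unadjusted p under 0.05 by limma, compared with 15.5% of all genes in either direction and 8.64% downward. In the same comparison 7 of 7 leukocyte genes were above 0 (median 0.55), 3 of them with an unadjusted p under 0.05 by limma, against the same 15.5%. The leukocyte sums were 99.5 to 287 on the ND and 277 to 671 on the WD. In *Tas1r3*-/- mice they were 274 to 421 and 241 to 861. *Krt19*, *Fabp1*, *Lyz1* and *Defa24* of these lists hold deposited values with more than 6 digits, described below for *Cldn7*. No marker in these lists was at 0 throughout a group, and the part of cell makeup in the claudin values was not tested.

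*Cldn5* belongs to the junctions of blood vessels. Its scaled RPKM was 16.6, 5.40, 23.6 and 7.63 in WD-fed *Tas1r3*+/+ libraries and 19.8, 9.88 and 6.20 in WD-fed *Tas1r3*-/- libraries. The summed level of 9 blood endothelial genes (9 of 9 in the table, none at 0 throughout a group) was 154, 115, 316 and 63.9, and 176, 112 and 75.1, in the same libraries. In each WD-fed group, the library with the highest endothelial sum was the one with the highest *Cldn5*, and its part in the value was not tested. On the ND the sums were 72.5 to 126 in *Tas1r3*+/+ and 80.0 and 112 in *Tas1r3*-/- libraries, and *Cldn5* was at 5.52 to 14.6 and at 14.0 and 11.8, and in neither ND-fed group was the library with the highest sum the one with the highest *Cldn5*.

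Low levels limited *Cldn8* and *Cldn1*. *Cldn8*, a sealing claudin known from the distal gut and the kidney tubule, rested on 8 to 157 implied reads per library, and its scaled RPKM was 0.346 to 4.92 in WD-fed *Tas1r3*+/+ and 1.51 to 3.54 in WD-fed *Tas1r3*-/- mice. Large intestine epithelial genes (5 of 7 in the table) were present in all groups, at summed levels of 1060 to 2143, 940 to 2070, 1395 to 1827 and 1008 to 2428 in ND-fed *Tas1r3*+/+, WD-fed *Tas1r3*+/+, ND-fed *Tas1r3*-/- and WD-fed *Tas1r3*-/- mice; their part in *Cldn8* was not tested. Within this list *Car1* was uneven, at 0.0623 to 80.3 in ND-fed *Tas1r3*+/+ and 0 to 10.7 in WD-fed *Tas1r3*+/+ libraries, and *Muc3* holds values with more than 6 digits. *Cldn1*, best known from the skin barrier, rested on 1.0 to 20.0 implied reads, with a median of 7.0. Its RPKM was 0.0335 to 0.480 in ND-fed *Tas1r3*+/+, 0.128 and 0.350 in ND-fed *Tas1r3*-/-, 0.0547 to 0.545 in WD-fed *Tas1r3*+/+ and 0.106 to 0.352 in WD-fed *Tas1r3*-/- mice. All 4 groups overlapped, and without the filter on low values the log2 difference between the WD-fed genotypes was -0.11 (adjusted p = 1.000 by limma), so a genotype difference of *Cldn1* was not detectable at this depth.

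*Cldn7* has 5 annotated transcripts at chromosome 11, 69964779 to 69967885 on the plus strand (GRCm38, GENCODE M21). Transcripts *Cldn7-202*, *Cldn7-203* and *Cldn7-204* start at 69964824, 69964835 and 69964779, *Cldn7-201* starts at 69965396, and *Cldn7-205* starts within the gene at 69966918. The other claudins with windows in RefSeq numbered 7, and 3 of those are shown with both start regions of *Cldn7*. *Cldn3* and *Cldn4* are neighbors on chromosome 5, 39279 bases apart, and *Cldn15* lies on the same chromosome. Each run holds 250 bases before and 50 from the annotated start (RefSeq, GRCm38.p6), 5′ to 3′ on the strand of the gene. The WD-fed genotypes did not overlap for *Cldn7* and overlapped for *Cldn3*, *Cldn4* and *Cldn15*, as for every other claudin. The windows left out hold no match to the hexamer marked here. Capitals mark the nuclear receptor hexamer AGGTCA or its reverse complement TGACCT.
*Cldn7* upstream start, chr11:69964529-69964828, plus strand: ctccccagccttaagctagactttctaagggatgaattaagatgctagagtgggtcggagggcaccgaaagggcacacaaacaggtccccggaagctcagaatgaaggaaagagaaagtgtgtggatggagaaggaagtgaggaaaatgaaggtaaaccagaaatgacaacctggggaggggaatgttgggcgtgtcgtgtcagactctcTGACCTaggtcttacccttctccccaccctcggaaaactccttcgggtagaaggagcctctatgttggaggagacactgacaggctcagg
*Cldn7* downstream start, chr11:69965171-69965470, plus strand: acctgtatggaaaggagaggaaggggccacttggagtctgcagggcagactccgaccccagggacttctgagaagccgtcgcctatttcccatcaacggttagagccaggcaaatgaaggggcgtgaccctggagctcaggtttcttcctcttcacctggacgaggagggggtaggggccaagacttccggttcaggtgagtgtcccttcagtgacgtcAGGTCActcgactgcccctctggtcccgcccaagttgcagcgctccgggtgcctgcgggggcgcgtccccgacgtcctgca
*Cldn4*, chr5:134946885-134947184, minus strand: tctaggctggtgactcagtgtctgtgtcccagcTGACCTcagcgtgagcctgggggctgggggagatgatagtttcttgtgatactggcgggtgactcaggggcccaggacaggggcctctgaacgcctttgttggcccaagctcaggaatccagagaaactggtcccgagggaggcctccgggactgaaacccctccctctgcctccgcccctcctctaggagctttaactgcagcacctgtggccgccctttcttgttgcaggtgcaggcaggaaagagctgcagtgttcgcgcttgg
*Cldn15*, chr5:136967619-136967918, plus strand: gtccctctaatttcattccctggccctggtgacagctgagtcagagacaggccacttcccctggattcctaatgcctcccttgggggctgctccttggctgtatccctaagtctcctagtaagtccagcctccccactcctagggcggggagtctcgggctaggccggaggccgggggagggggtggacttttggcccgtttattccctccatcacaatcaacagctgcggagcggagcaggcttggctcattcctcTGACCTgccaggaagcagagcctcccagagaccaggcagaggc
*Cldn3*, chr5:134985964-134986263, plus strand: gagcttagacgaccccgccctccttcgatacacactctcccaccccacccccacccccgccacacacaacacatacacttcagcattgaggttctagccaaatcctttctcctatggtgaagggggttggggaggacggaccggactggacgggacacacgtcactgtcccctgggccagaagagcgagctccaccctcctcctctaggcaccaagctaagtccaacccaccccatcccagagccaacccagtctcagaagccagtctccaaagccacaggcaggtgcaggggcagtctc
The hexamer was in 4 of the 11 windows of 8 claudins, namely both of *Cldn7* and those of *Cldn4* and *Cldn15*, and in 16.3% of all 32851 RefSeq windows. The motif AACCNGTT of the grainyhead-like factors was in 1 of the 11 windows (*Cldn5*) and 2.09% of all, and TATAAA was in 1 (*Cldn2*) and 13.6% of all. Both strands were searched, and no claudin window held more than 1 of these motifs. No window of *Cldn8* or *Cldn23* was at hand. A match is a description of these letters and not a binding site. Whether these letters bear on the levels of the claudins was not tested.

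The transcripts of *Cldn7* did not keep the same shares on the 2 diets. *Cldn7-201* was the most abundant in ND-fed *Tas1r3*+/+ mice, at a scaled RPKM of 398 ± 27.8 (SD, n = 4), 45.9% to 66.7% of the gene. In WD-fed *Tas1r3*+/+ mice it was at 38.5, 78.4, 44.1 and 127, which was 12.5% to 25.5% of the gene. In *Tas1r3*-/- mice it was at 227 and 175 on the ND and at 275, 233 and 390 on the WD. For this transcript alone, the diet difference in *Tas1r3*+/+ mice was -2.63 on the log2 scale with an adjusted p of 0.00984 by limma, which is a call. The genotype difference on the WD was 2.18 with an adjusted p of 0.182 by limma, which is not a call. *Cldn7-204* went the other way in *Tas1r3*+/+ mice, from 10.3 to 71.7 on the ND to 66.9 to 154 on the WD, and reached 153 to 218 in WD-fed *Tas1r3*-/- mice. *Cldn7-203* was at 119 to 145 in WD-fed *Tas1r3*+/+ and at 214 to 308 in WD-fed *Tas1r3*-/- mice. *Cldn7-205* was at 31.1 to 63.3 and at 146 to 232. *Cldn7-202* stayed at or below 20.2 in all libraries. These transcripts overlap, so the division of reads among them is an estimate, and no test across transcripts was made.

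The digits of the deposited values set *Cldn7* apart from the other claudins. In 13 of the 16 columns, nearly all values have at most 6 significant digits; 169 of 770354 have more, in 70 of the 23299 genes. The ND-fed *Tas1r3*-/- female columns and female 2 of the WD-fed *Tas1r3*-/- mice, which are combinations of other values, were not counted. Among the claudins, 9 of the 65 *Cldn7* values have more than 6, spread over all 5 of its transcripts. They are 3 values of WD-fed *Tas1r3*+/+ mice, 6 of WD-fed *Tas1r3*-/- mice and 0 of ND-fed mice, and 0 values of the other 9 claudins have them. Female 2 of the WD-fed *Tas1r3*-/- mice, which enters the female mean, holds 4 more for *Cldn7*. Over the deposited, unscaled RPKM with at most 6 digits, which were compared after the data were seen, the *Tas1r3*-/- values were above all *Tas1r3*+/+ values on the WD in 5 of 5 transcripts. In scaled RPKM with all values, *Cldn7-204* overlapped, at 154 in the *Tas1r3*+/+ female 2 and 153 in the *Tas1r3*-/- females. For *Cldn7-202*, with 3 such values in each group, the RPKM was 8.33 to 14.1 against 3.13 to 6.02. For *Cldn7-203* and *Cldn7-204* a single value of *Tas1r3*-/- mice was left in each. Without every transcript that holds such a value, *Cldn7* has no value, and the part of these values in its differences was not tested.

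**Figure D4:**
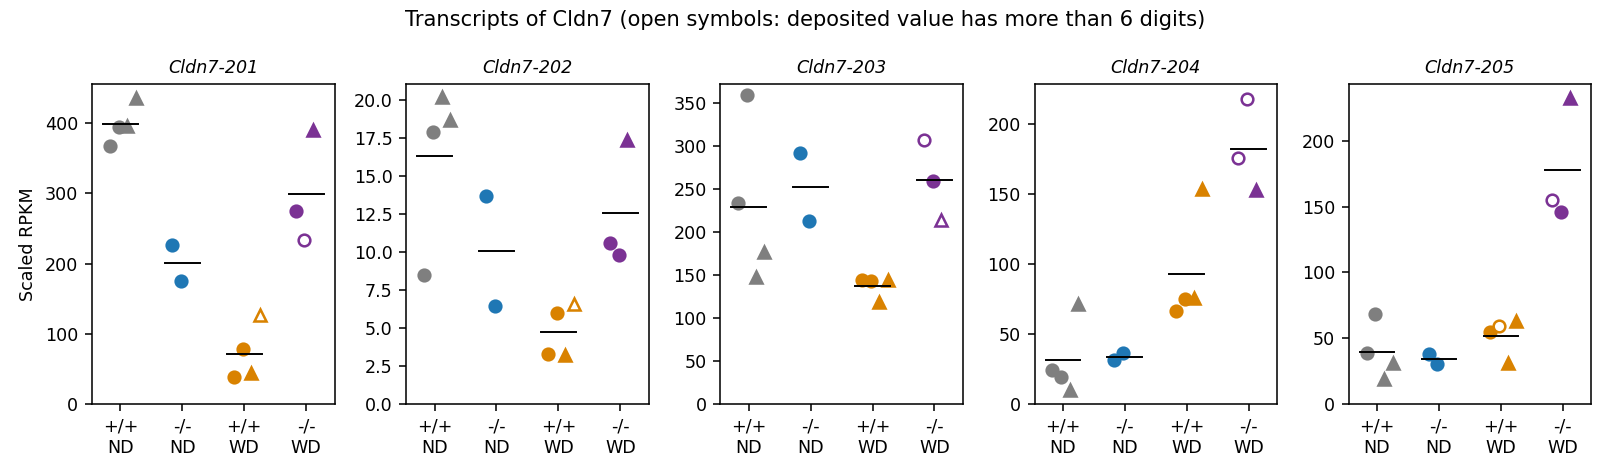
Scaled RPKM of the 5 *Cldn7* transcripts in the 13 libraries by genotype and diet (each axis starts at 0); circles are males, triangles females and black lines group means, and open symbols mark deposited values with more than 6 digits (female 1 column for the WD-fed *Tas1r3*-/- females). *Cldn7-201* is at 38.5 to 127 in WD-fed *Tas1r3*+/+ and 233 to 390 in WD-fed *Tas1r3*-/- mice, and all 9 open symbols are in WD-fed groups.

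Among the other genes of the tight junction, *Ocln*, *Tjp1* and *Tjp3* were, like *Cldn7*, without overlap higher in WD-fed *Tas1r3*-/- than *Tas1r3*+/+ libraries, and they too hold values with more than 6 digits. Of all genes tested, 2.84% did not overlap in this comparison, in either direction, and 0.0105% were called. Of 12 membrane partners, 10 were tested in WD-fed mice, with 0 called, 2 estimates above 0 and 8 below, and a median log2 difference of -0.22. *Ocln* (occludin) was at a scaled RPKM of 7.09, 10.3, 11.8 and 21.7 in *Tas1r3*+/+ and 40.5, 31.4 and 27.1 in *Tas1r3*-/- libraries, without overlap (log2 difference 1.43, SE 0.37, adjusted p = 1.000 by limma). *Ildr1*, a tricellular junction protein, was at -0.58, *Epcam* at -0.49 and *Cxadr*, an adhesion receptor, at -0.37. Of 16 scaffold and polarity genes tested, 0 were called, 7 estimates were above 0 and 9 below, and the median was -0.06. *Tjp1* (ZO-1) was at 6.63, 9.28, 8.27 and 11.1 in *Tas1r3*+/+ and 26.1, 28.3 and 17.5 in *Tas1r3*-/- libraries (log2 difference 1.38, SE 0.22, adjusted p = 0.117 by limma). *Tjp3* (ZO-3) was at 27.7, 32.5, 41.8 and 76.1, and at 115, 92.2 and 101 (log2 difference 1.31, adjusted p = 0.719 by limma), whereas the polarity gene *Patj* was at -0.49 and the junction protein *Cgn* at -0.39. Between the diets, the log2 differences of *Ocln*, *Tjp1* and *Tjp3* were -1.01, -0.66 and -1.19 in *Tas1r3*+/+ mice and 0.92, 1.12 and 0.26 in *Tas1r3*-/- mice, with adjusted p of 0.103 or above by limma.

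Values with more than 6 digits numbered 8 of 52 in *Ocln*, 3 of 65 in *Tjp1* and 6 of 65 in *Tjp3*, all in WD-fed groups, and 0 in the other members of these 2 lists. Without the transcripts that hold them, *Ocln* and *Tjp3* were no longer tested, and the log2 difference of *Tjp1* was 1.22 (adjusted p = 0.793 by limma). Over all genes, 70 with such values were tested, and 55 of them (78.6%) had an unadjusted p under 0.05 between the WD-fed genotypes, against 2.37% of the other 18972 genes. The part of these values in the differences was not tested.

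**Figure D5:**
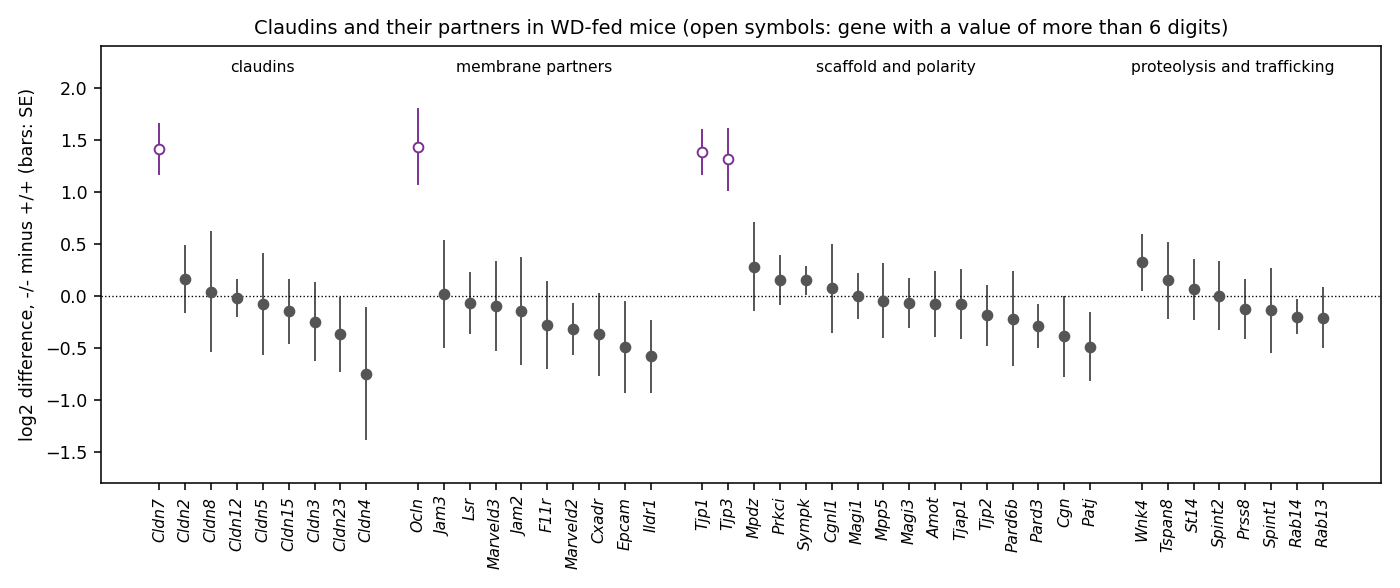
Log2 difference between WD-fed *Tas1r3*-/- and *Tas1r3*+/+ mice (points; bars are limma SEs) for the claudins tested and 3 lists of junction genes, in order of size within each list. The 4 open symbols, *Cldn7*, *Ocln*, *Tjp1* and *Tjp3*, are genes with a deposited value of more than 6 digits and lie between 1.31 and 1.43, and the other genes lie between -0.75 and 0.32.

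Genes that act on claudins or their transcription gave 0 calls. Of 8 genes of claudin proteolysis and trafficking, 4 were above and 4 below 0 in WD-fed mice, with a median of -0.06; the largest differences were 0.32 for the kinase gene *Wnk4* and -0.21 for *Rab13*. *St14*, which encodes the protease matriptase, was lower on the WD in *Tas1r3*+/+ mice at an unadjusted p of 0.0166 (log2 difference -0.74, adjusted p = 0.226 by limma), which is 1 of 8 members, compared with 15.5% of all genes. Of 14 transcription factors of gut epithelium tested, 5 were above and 9 below 0 in WD-fed mice, with a median of -0.09. Between the diets in *Tas1r3*+/+ mice, 4 of the 14 had an unadjusted p under 0.05, compared with 15.5% of all genes in either direction and 8.64% downward. *Elf3* at -1.16, *Klf4* at -0.77 and *Cdx1* at -0.68 were lower on the WD and *Snai2* at 0.95 was higher (adjusted p of 0.137 to 0.252 by limma). In the ND genotype comparison and in the interaction, only *Klf4* had such a p, at -1.27 and 1.50, compared with 4.73% and 1.43% of all genes. *Klf4* and *Klf5* of this list hold values with more than 6 digits. Among the larger differences between the WD-fed genotypes were *Hnf4g* at -0.68, *Snai1* at -0.63 and *Vdr* at -0.44. Of 21 further claudins and claudin-like genes, 4 were in the table and 2 were tested. Between the WD-fed genotypes, *Cldn10* was at -0.40 and *Cldnd1* at -0.28. In the 5 comparisons, 0 members of these lists had an adjusted p under 0.05 by limma.

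Likeness to *Cldn7* was measured as Pearson's r of scaled log2 values over the 13 libraries, among the 10903 genes with a mean RPKM of at least 5. The highest were *Reg3g* (0.925), an antimicrobial lectin, *Cpt2* (0.894), of mitochondrial fatty acid oxidation, *Muc2* (0.893), the goblet cell mucin, *Tjp3* (0.881) and *Ocln* (0.872). All 5 hold values with more than 6 digits, as did 0.541% of the genes compared. Among genes without such values, a choice made after seeing the data, the highest were *Gm1943* (0.822) and *Golgb1* (0.804). The 7 other claudins compared ranged from -0.24 (*Cldn5*) to 0.38 (*Cldn2*), with *Cldn2* at position 995 of the 10903. *Cldn3* in contrast had r of 0.93 with *Cldn23*, 0.84 with *Cldn15*, 0.75 with *Cldn4* and 0.22 with *Cldn7*; its closest genes were *Prelid1* (0.972), *Ttc7* (0.971), *Casz1*, *Mpnd* and *Fkbp8* (0.967 each). The libraries share depth, scaling and group means, so these correlations describe the libraries and carry no p.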

How the data were processed

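RNA of 16 labeled samples was deposited as 1 value per transcript. STAR within Partek, which the submitters' notes also name, was the authors' aligner, with GRCm38 as the genome and transcript models from Ensembl release 91. The deposited values are RPKM, in which the authors scaled the reads by transcript length and a library total. That total may be that of TPM, which leaves ratios within a library the same. The summed values were nearly alike over the ND-fed libraries and differed over the WD-fed ones, as given above, and which total was used was not tested. Read counts were not used, so the depth was read from the step between values of genes with 1 transcript (86.6% to 87.9% whole within 0.02 reads). Lengths and positions came from GENCODE M21, on the same build, which matched 98.2% of the transcripts.

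Transcripts were summed to genes, libraries were scaled by trimmed log ratios (30% of the ratios and 5% of the levels), 0.5 was added as pseudocount before taking log2, and limma 3.58.1 (R 4.3.3) fitted all 4 groups together with a mean-variance trend. Fold changes are on that scale and understate the change of low genes. The procedure was tested on simulated data. Permutation tests, correlations and figures used Python 3.11.15, numpy 2.4.6, pandas 2.3.3, scipy 1.17.1 and matplotlib 3.10.9. Nothing in the labels says more of the separateness of the mice than their sex and number, so p-values measure the spread between these libraries.

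The claudins and the gene lists were chosen with earlier results of these data known. The text names all 10 claudins, list members past an adjusted p of 0.05 and up to 4 with the largest difference between the WD-fed genotypes, the 5 genes most like *Cldn7* and *Cldn3*, and *Tas1r3* as a check; *St14*, *Elf3*, *Cdx1*, *Snai2*, *Klf4*, *Klf5*, *Gm1943*, *Golgb1* and the marker genes were chosen after their values were seen. For 1 list member no value is reported here. Implied reads cover counting error only. The alternatives were RLE, upper quartile and no scaling, pseudocounts of 0.1 and 1, other filters, sex or replicate as a term, males only, the 2 groups alone, each library left out, other uses of the related columns, transcripts left out and no trend.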

Additional observations from a re-analysis of the deposited data

Results flagged for a closer look

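In the 20 sets of 4 libraries tested for a sample far from the others, 1 stood out, and chance gives about 1 in 20 such sets. In WD-fed *Tas1r3*+/+ mice, the female 2 library had a scaled RPKM of 179 for *Cldn4*, against 42.3 to 50.6 in the other 3. On the log2 scale, its gap to the nearest library was 0.876 of the whole range, above Dixon's critical value for 4 samples. The same library had the highest sums of epithelial, ileal enterocyte and goblet cell genes of its group (6062, 22097 and 9700), in which *Krt19*, *Fabp1* and *Muc2* hold values with more than 6 digits; their part in the value of *Cldn4* was not tested.

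The diet estimates of *Cldn7* had opposite signs in the 2 genotypes, and their difference was not called. All 4 *Tas1r3*+/+ libraries were lower on the WD than every ND-fed *Tas1r3*+/+ library, and all 3 *Tas1r3*-/- libraries were higher than both ND-fed ones. The interaction was 1.83 on the log2 scale, with an adjusted p of 1.000 by limma over all genes. Over its alternatives the interaction was 1.65 to 3.17, with adjusted p of 0.0478 to 1.000, and its WD values include those with more than 6 digits.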

How the results depend on the processing

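The number of claudins called was 0 in each comparison and stayed 0 in all but 3 of the alternatives run over the comparisons. With all 16 columns as labeled, related columns included, 1 claudin was called between the WD-fed genotypes, *Cldn7*, at 1.46 (adjusted p = 0.00658 by limma). Of all genes tested, 6 were called there. Between the diets in *Tas1r3*+/+ mice, 1 claudin was called with the RPKM as deposited (*Cldn7*, -1.47, among 539 genes called). With the most abundant transcript alone, 1 was also called (*Cldn7*, -2.63, among 10 genes called). The WD genotype difference of *Cldn7* was 1.29 to 2.18 over 29 alternatives and 1.31 to 1.57 with each library left out in turn; the number of calls ranged from 0 to 0 in those fits. With a replicate block the difference of *Cldn7* was 1.50, with an adjusted p of 0.213, and 0 claudins were called in all 5 comparisons. Same-numbered libraries correlated at -0.15 to 0.57 in their deviations from group means, over 0.1 in 7 of 14 pairs and not in all, so the numbers were not taken as pairs, although 10 of 12 libraries were nearest to their own number, a hint from the data and not from the design. With the block, *Cldn12* between the diets in *Tas1r3*-/- mice had an unadjusted p of 0.0552 and *Cldn8* between the ND-fed genotypes one of 0.0459. Of 45 log2 differences, the 7 whose interval excludes 0 kept their sign in all 30 alternatives in which they could be computed; 19 of the other 38 changed sign in at least 1. Among 80 group levels recomputed as scaled RPKM or from 1 transcript, 21 moved by more than the SD between libraries. Without every transcript that holds a value of more than 6 digits, *Cldn7* had no value. Depth limits *Cldn1* (at most 20.0 implied reads) and *Cldn8*, and 2 libraries limit the ND-fed *Tas1r3*-/- group.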
